A study of Mus musculus with 6 samples.

Results

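Genes of glutathione use, peroxide removal and superoxide removal were examined in mouse mammary epithelial cells (MECs), the epithelium of ducts and alveoli. The members are the glutathione S-transferase classes alpha, mu, pi, theta, omega, zeta and kappa, the glutathione peroxidases, the peroxiredoxins, and Nqo1, Hmox1, Gclc, Gclm, Txnrd1, Srxn1, Sod1, Sod2 and Cat, taken by the gene symbol of the array's platform annotation. The rule also lists Gsr, which was not analysed here. It found 43 genes of 19057 named on the array, with 74 of its 45281 probes. Of these, 48 probes of 36 genes had a detection p under 0.05 on at least 3 of the 6 arrays and entered the test, together with 17920 probes in all. The detection p compares a probe with the background of its own array.

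The cultures with the Jarid1B knockout (Jarid1b-/-, here KO) gave 3 arrays, and the wild-type cultures (Jarid1b+/+, here WT) gave 3 arrays. Jarid1B is the older name of Kdm5b, which encodes a histone H3 lysine 4 demethylase. Each genotype has a sample lettered A, B and C, the cultures were harvested in pairs at early passage before confluence, and the letters are taken here as the pairs. Separate animals for the cultures are not stated, so a p-value covers the spread among these samples alone, which may be technical. Allele, strain, animal age and any treatment are likewise unstated in the labels.

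Glutathione is a small thiol that cells use as an electron donor and as a tag for reactive compounds. Its synthesis is limited by glutamate-cysteine ligase, built from the Gclc and Gclm products. Transferases couple glutathione to electrophiles, glutathione peroxidases spend it on hydrogen peroxide and lipid peroxides, and peroxiredoxins remove peroxide with the help of thioredoxin, which Txnrd1 keeps reduced. Srxn1 encodes sulfiredoxin, which restores overoxidised peroxiredoxins. Many of these genes are induced by the transcription factor NRF2 (Nfe2l2), which binds antioxidant response elements in their promoters and enhancers.

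Promoter sequences are shown for Srxn1, whose signal differed between the pairs of cultures, and for Prdx1, a peroxiredoxin that sulfiredoxin restores. They are also shown for Gclm, and for Gstt1 of the theta class, where all tested probes had negative KO minus WT differences. They come from RefSeq (GRCm38.p6), run 5′ to 3′ along the gene from 250 bases before to 50 after its start, and carry in capitals each match to the antioxidant response element core, searched on both strands as TGACNNNGC or TGAGNNNGC.
Srxn1, chr2:152105274-152105573, plus strand: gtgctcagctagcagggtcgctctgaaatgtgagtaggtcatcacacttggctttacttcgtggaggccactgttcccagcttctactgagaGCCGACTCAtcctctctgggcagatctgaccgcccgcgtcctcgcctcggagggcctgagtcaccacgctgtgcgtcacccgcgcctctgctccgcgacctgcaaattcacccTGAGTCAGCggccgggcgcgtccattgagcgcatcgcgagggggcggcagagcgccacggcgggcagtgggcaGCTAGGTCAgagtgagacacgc
Prdx1, chr4:116685349-116685648, plus strand: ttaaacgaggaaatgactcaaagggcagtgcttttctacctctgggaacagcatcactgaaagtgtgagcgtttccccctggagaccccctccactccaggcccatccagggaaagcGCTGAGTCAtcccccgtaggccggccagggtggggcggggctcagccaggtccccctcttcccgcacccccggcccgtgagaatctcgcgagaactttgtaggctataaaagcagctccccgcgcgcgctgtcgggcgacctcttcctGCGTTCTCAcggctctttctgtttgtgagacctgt
Gclm, chr3:122245307-122245606, plus strand: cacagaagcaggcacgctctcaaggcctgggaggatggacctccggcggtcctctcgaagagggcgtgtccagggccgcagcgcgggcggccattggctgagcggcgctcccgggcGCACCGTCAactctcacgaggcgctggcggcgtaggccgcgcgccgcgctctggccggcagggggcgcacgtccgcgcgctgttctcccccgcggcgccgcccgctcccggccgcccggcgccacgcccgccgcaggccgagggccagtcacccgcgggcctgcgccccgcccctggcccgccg
Gstt1, chr10:75797682-75797981, minus strand: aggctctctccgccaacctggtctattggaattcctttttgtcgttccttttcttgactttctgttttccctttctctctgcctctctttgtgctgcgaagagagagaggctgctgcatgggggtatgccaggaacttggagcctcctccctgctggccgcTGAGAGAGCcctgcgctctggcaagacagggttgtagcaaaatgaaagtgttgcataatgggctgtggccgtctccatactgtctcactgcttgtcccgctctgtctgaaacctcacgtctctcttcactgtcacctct
Srxn1 held 3 matches, Prdx1 held 2, and Gclm and Gstt1 held 1 each. One match of Srxn1 reads TGAGTCAGC on the gene's strand and starts at position -45, and one of Prdx1 reads TGACTCAGC on the other strand. These matches also contain TGAGTCA or TGACTCA, the core bound by AP-1 factors. A promoter was found for 39 of the 43 member genes, in 52 windows, and 28.8% of those windows held a match, against 27.8% of all 32851 windows. Gclc, Gsta4, Gstt2 and Hmox1 had no entry. A match describes the letters in this window and is no evidence of binding.

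Signal was measured as probe intensity on Illumina bead arrays, corrected for background, quantile normalised and given as log2 intensity. Between 17033 and 18686 probes were detected per array, with raw median intensities from 95.3 to 100.7, and precision is limited by having 6 arrays. Kdm5b, the targeted gene, had log2 intensities of 4.42, 4.42 and 4.34 in KO cultures A, B and C, against 7.07, 6.89 and 6.60 in WT cultures A, B and C. It was not detected on any KO array, and it fell by at least 4.94-fold (limma adjusted p = 0.0155) at this lead probe. A second probe fell by at least 4.51-fold with the same adjusted p, and the other tested probe differed by -0.90 and was not called (adjusted p = 0.924). A bound of this kind sets the bright group's mean against the lowest detected signal of the dim group's arrays. The call was lost in 10 of 16 alternative settings, among them the omission of KO replicate A, B or C or WT replicate A or B (log2 differences from -2.47 to -2.35, adjusted p from 0.0781 to 0.217). The position of its probes relative to the deleted part is unstated in the labels. Pair C stood apart from pairs A and B on the first principal component, which carried 56.5% of the variance. Of the cell markers, 9 of 11 luminal and 9 of 11 basal genes passed the detection filter, with Epcam, Ehf, Cnn1 and Oxtr not tested.

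No antioxidant gene passed the test for a difference between KO and WT. Of 48 tested member probes, 0 had a limma adjusted p under 0.05, where 0.0167% of all 17920 tested probes did, and the lowest adjusted p of a member was 0.9999. At an unadjusted p under 0.05 there were likewise 0 of 48 members, where 3.03% of all probes passed. KO and WT arrays did not overlap for 2 members (4.17%), against 8.14% of all probes. Both were lower in KO, where 5.3% of all probes were lower without overlap, and they were the tested Gstt2 probe and the lead probe of Gsto2. The lead probe of a gene is its tested probe with the highest mean log2 intensity. The median KO minus WT difference over the 48 members was 0.09 on the log2 scale, with 34 positive and 14 negative (29.2% negative), against -0.02 and 54% negative over all tested probes. With the pairs in the model as a replicate block, 0 members passed after adjustment (0.0223% of all probes) and 5 passed at an unadjusted p under 0.05, 10.4% of members against 8.08% of all probes. Under median scaling in place of quantile normalisation, the members' median was -0.02, with 23 positive and 25 negative, and that of all probes was -0.10.

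The 95% interval of the KO minus WT difference lay inside a 2-fold change in either direction for 36 of the 48 member probes. For the other 12 a larger change lies within the interval. These were the probes of Srxn1, Gstm2, Gpx3, Gpx7, Gstt1, Gstt3, Hmox1 and Nqo1, described below. Several of the 36 probes, among them those of Gclc, Gpx2, Gstp2 and Gsto2, lie close to background. That limits the size of any difference seen there, so a narrow interval of such a probe does not bound the change in transcript. The intervals come from the fit without a pair term, so they include the spread between pairs. With the pairs as a replicate block, the SE was 0.19 for the Srxn1 lead probe and 0.28 for Hmox1, against 1.27 and 0.59 without it. For Nqo1 it was 0.39 in both fits. Since the RNA is of whole cultures, fewer cells of a type and less RNA per cell cannot be told apart.

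**Figure D1:**
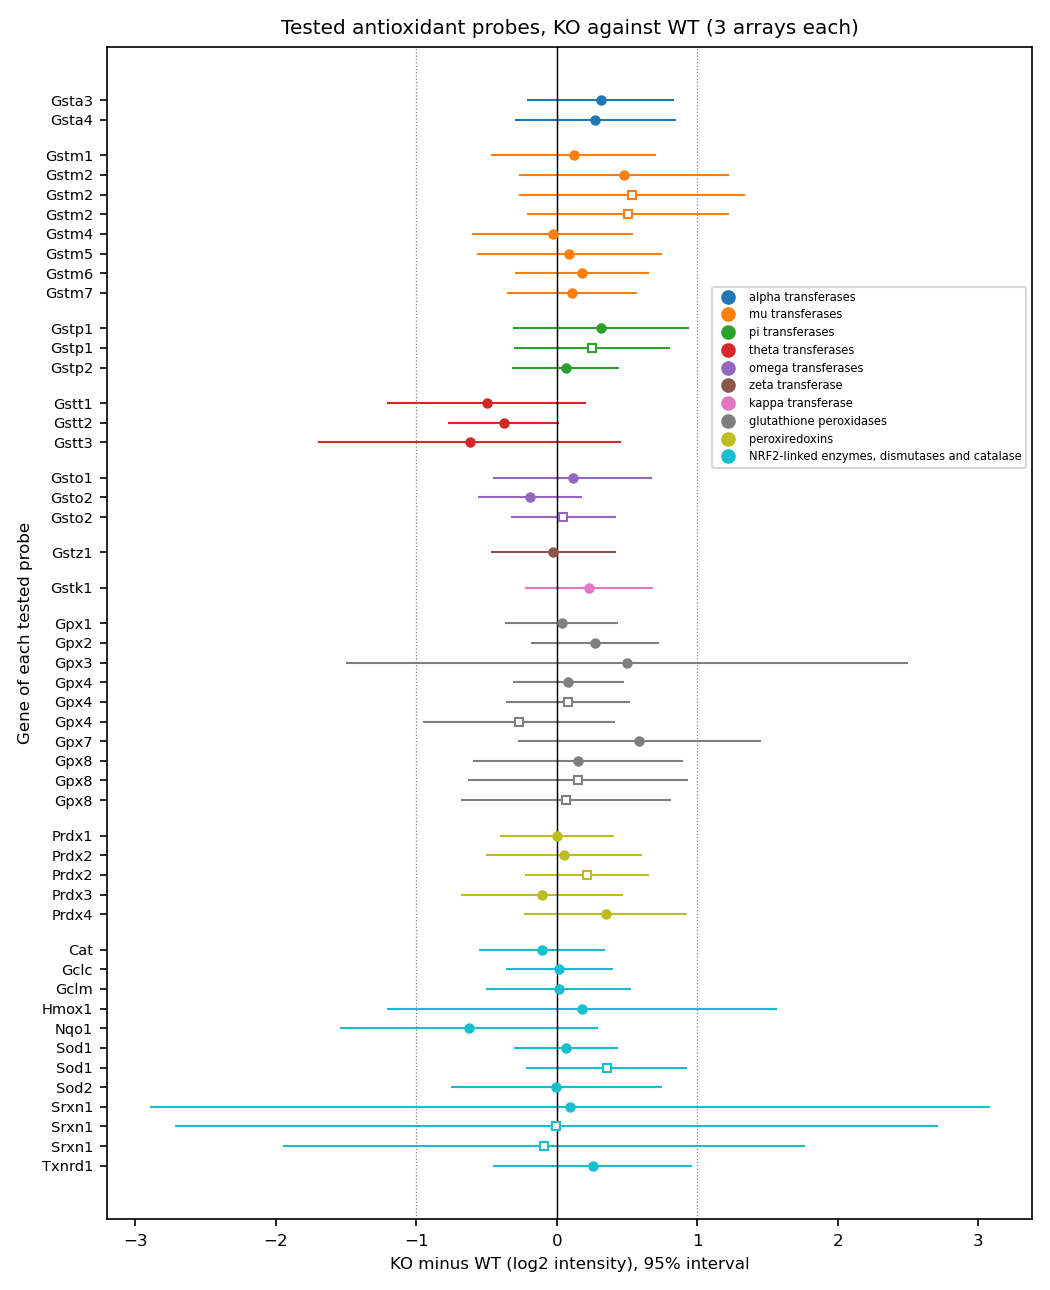
KO minus WT difference in log2 intensity (x axis) for each of the 48 tested member probes, by gene and class (y axis). Filled circles are lead probes, open squares other probes of the same gene, and bars 95% intervals from limma. Dotted lines mark 2-fold changes, and the intervals of Srxn1 and Gpx3 are widest while those of Gpx1, Prdx1, Gclc and the lead probe of Sod1 are narrow. Gclc lies close to background, which limits the size of any difference seen there.

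The theta transferases, which act on small halogenated compounds and are encoded on chromosome 10, had a lower KO mean at 3 of 3 tested probes, none of them called. Their median difference was -0.50, and -0.62 with median scaling. Luminal markers were also lower in KO at 9 of 9 tested genes of 11, none called after adjustment, with list medians of -0.61 (A), -0.14 (B) and -0.16 (C). Their part in the theta values was not tested. Gstt2 had log2 intensities of 6.96, 7.15 and 7.31 in KO cultures A, B and C, against 7.50, 7.58 and 7.48 in WT cultures A, B and C. All KO arrays lay below all WT arrays, at 7.14 ± 0.18 in KO and 7.52 ± 0.05 in WT (SD, n = 3 each). The difference was -0.38 (SE 0.17, 95% interval -0.77 to 0.02, limma adjusted p = 0.9999), with the smallest unadjusted p of any member, 0.058.

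Gstt1 read 6.61, 7.80 and 7.29 in KO cultures A, B and C, against 7.60, 7.74 and 7.85 in WT cultures A, B and C. KO arrays A and C lay below all WT arrays, and KO B lay among them, so the groups overlapped. Its difference was -0.50 (SE 0.30), and it ran from -0.78 with KO replicate B left out to -0.19 with KO replicate A left out. Gstt3, named after its values were seen, read 7.58, 8.21 and 8.65 in KO cultures against 8.17, 8.40 and 9.74 in WT cultures A, B and C. Within pairs A, B and C the KO minus WT values were -0.60, -0.18 and -1.08, and the groups overlapped. The difference of -0.62 (SE 0.46) became -0.14 without WT replicate C. In the fit with a replicate block, Gstt3 and Gstt2 had unadjusted p = 0.0194 and 0.0478 and limma adjusted p = 0.549 and 0.616. A second Gstt2 probe was detected on 2 arrays only, both WT, and was not tested.

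The mu transferases, closely related genes on chromosome 3 whose probes may pick up each other's transcripts, had a median difference of 0.15 over 8 probes, 7 of them positive, and 0.11 with 6 positive under median scaling. Gstm2 had the smallest p of the class. Its lead probe read 9.50, 10.23 and 10.37 in KO cultures A, B and C, against 9.29, 9.30 and 10.08 in WT cultures A, B and C. KO was above WT within each pair, and the WT array of pair C lay above the KO array of pair A. The difference was 0.48 (SE 0.32, 95% interval -0.27 to 1.23), and the other probes of the gene differed by 0.53 and 0.51. Without KO replicate A the lead probe differed by 0.75, and without KO replicate C by 0.31. With the replicate block the lead probe had an unadjusted p = 0.0413 and a limma adjusted p = 0.611.

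Endothelial markers did not pass the test, at 0 of 8 even without adjustment. With the replicate block, 2 of 8 had an unadjusted p under 0.05, where 8.08% of all probes did, and none passed after adjustment. The list's median by pair was -0.06 (A), 1.001 (B) and 0.25 (C), beside 0.22, 0.93 and 0.29 for Gstm2. All 8 tested markers of 9 had positive group differences, and their summed intensity ranged from 4469 to 10212 in KO and from 4502 to 6080 in WT, with the highest sum in KO culture B, while Kdr was not tested. The part of these cells in the Gstm2 values was not tested. Gstm6 differed by 0.18 (SE 0.20). The other tested mu genes, Gstm1, Gstm4, Gstm5 and Gstm7, had differences between -0.03 and 0.12.

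The alpha transferases act on lipid peroxidation products, and Gsta4 in particular on hydroxynonenal. Gsta4 read 6.67, 6.84 and 6.82 in KO cultures against 6.30, 6.20 and 7.002 in WT cultures A, B and C. The KO arrays lay close together between the high WT array of pair C and the other WT arrays. The difference was 0.27 (SE 0.24), or 0.52 without WT replicate C. Gsta3 differed by 0.31 (SE 0.22), and by 0.14 without KO replicate A. It was detected on 3 KO arrays and 2 WT arrays, so its values sit near background. It lies on chromosome 1, as Kdm5b does.

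Gstp1, a pi class transferase abundant in many epithelia, read 10.07, 9.70 and 10.39 in KO cultures, against 9.47, 9.59 and 10.18 in WT cultures A, B and C. KO was above WT within each pair and the groups overlapped. Its lead probe differed by 0.31 (SE 0.27) and its other tested probe by 0.25, and Gstp2, a near-identical neighbour, by 0.06 (SE 0.16). The omega transferases reduce dehydroascorbate and arsenic compounds. Gsto1 differed by 0.11 (SE 0.24), or -0.02 with median scaling. The lead probe of Gsto2 read 5.08, 4.99 and 5.02 in KO cultures against 5.18, 5.13 and 5.34 in WT cultures A, B and C. All KO values lay below all WT values by a small margin, with a difference of -0.19 (SE 0.16), while its second probe differed by 0.05. Gstz1, which acts in tyrosine breakdown, differed by -0.02 (SE 0.19), and the mitochondrial and peroxisomal Gstk1 by 0.23 (SE 0.19).

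**Figure D2:**
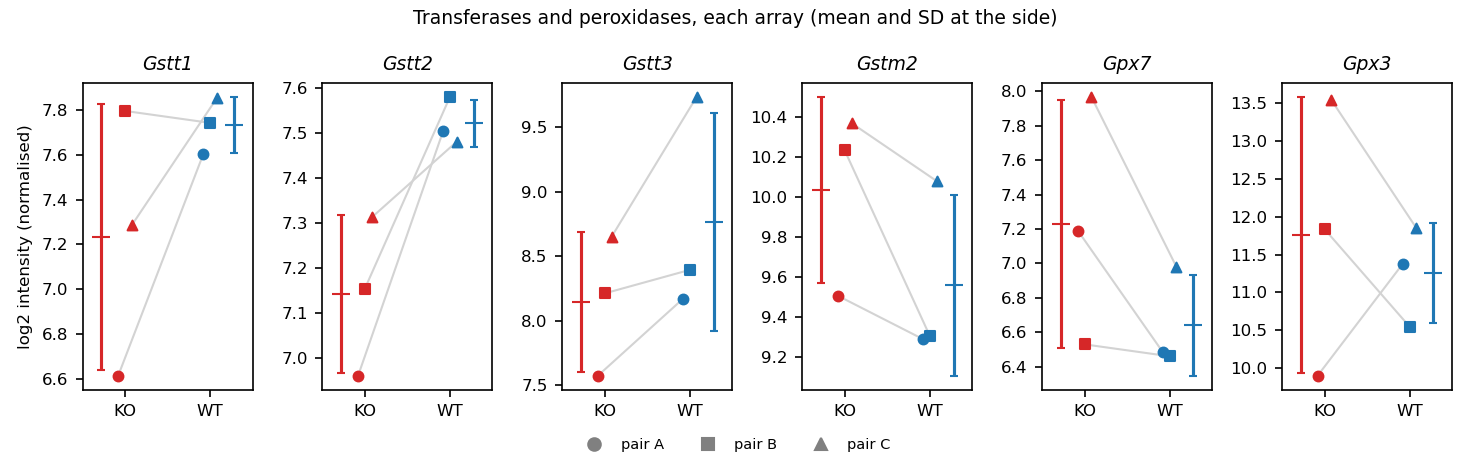
Normalised log2 intensity (y axis, own scale per gene) of 6 lead probes in each KO array (red, left) and WT array (blue, right), with grey lines joining cultures of the same pair letter. The crossbars at the side give the mean and SD (n = 3). For Gstt2 the groups do not overlap, and for Gpx3 the lines cross.

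Glutathione peroxidases had a median difference of 0.12 over 10 probes, 9 of them positive, and 0.00 with 5 positive under median scaling. Gpx7, a peroxidase of the endoplasmic reticulum, read 7.19, 6.53 and 7.97 in KO cultures, against 6.49, 6.46 and 6.98 in WT cultures A, B and C. KO exceeded WT clearly in pairs A and C and by 0.07 in pair B. The difference was 0.59 (SE 0.37, 95% interval -0.28 to 1.45), or 0.94 without KO replicate B and 0.22 without KO replicate C. With the replicate block it had an unadjusted p = 0.0265 and a limma adjusted p = 0.577.

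No fibroblast marker passed after adjustment, and 7 of 12 did at an unadjusted p under 0.05, where 3.03% of all probes did. Of 12 tested fibroblast markers of 14, 11 had positive differences, and the list's pair medians were 0.99 (A), 0.02 (B) and 1.005 (C). Their summed intensity ranged from 9960 to 16587 in KO and from 9507 to 10363 in WT, and Fbn1 and Postn were not tested. Proliferation markers had positive differences at 11 of 11 tested genes of 14, none called after adjustment, with list medians of 2.23 (A), -0.25 (B) and 0.68 (C). The part of either list in the Gpx7 values was not tested. Gpx8, a related membrane enzyme of the endoplasmic reticulum, differed within pairs at its lead probe by 0.58 (A), -0.22 (B) and 0.09 (C), and 0.15, 0.15 and 0.07 (SE 0.32, 0.33 and 0.32) at its 3 probes as group means.

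Gpx3, the secreted peroxidase of plasma and extracellular fluid, named after its values were seen, had no common direction. It read 9.90, 11.84 and 13.54 in KO cultures A, B and C, against 11.38, 10.55 and 11.85 in WT cultures A, B and C. Its lowest and highest values were both KO arrays. Pair A differed by -1.47, pair B by 1.29 and pair C by 1.69, and the group difference was 0.50 (SE 0.85, 95% interval -1.50 to 2.50), or -0.39 without KO replicate C and 1.43 without KO replicate A.

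Gpx1, the main cytosolic glutathione peroxidase, read 13.28, 13.01 and 13.05 in KO cultures against 13.16, 13.14 and 12.93 in WT cultures A, B and C. The groups were intermingled within a narrow range, with a difference of 0.04 (SE 0.17, 95% interval -0.37 to 0.44). Gpx4, which removes lipid hydroperoxides in membranes, differed by 0.08 (SE 0.17) at its lead probe, by 0.08 at the second and by -0.27 at the third. The epithelial Gpx2 differed by 0.27 (SE 0.19), or 0.12 without KO replicate A.

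The peroxiredoxins measured were Prdx1 to Prdx4, and Prdx5 and Prdx6 were not analysed here. They had a median difference of 0.05 over 5 probes, or -0.07 with median scaling. Prdx1, a cytosolic enzyme, read 12.26, 11.91 and 11.94 in KO cultures, against 12.08, 12.04 and 11.99 in WT cultures A, B and C. The KO arrays lay on both sides of the WT arrays, with a difference of 0.00 (SE 0.17, 95% interval -0.41 to 0.40). Prdx4, the peroxiredoxin of the endoplasmic reticulum, read 11.85, 11.33 and 11.84 in KO cultures, against 11.20, 11.06 and 11.72 in WT cultures A, B and C. It was above WT within each pair, with a difference of 0.35 (SE 0.25), or 0.54 without WT replicate C and 0.21 without WT replicate B. Mitochondrial Prdx3 differed by -0.11 (SE 0.25), split by pair as 0.51 (A), -0.39 (B) and -0.44 (C). The lead probe of Prdx2 differed by 0.05 (SE 0.23).

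Among the NRF2-linked enzymes, Nqo1, a quinone reductase often used as a readout of NRF2, read 5.46, 6.38 and 5.09 in KO cultures, against 6.15, 5.83 and 6.82 in WT cultures A, B and C. KO was lower in pairs A and C and higher in pair B. The difference was -0.63 (SE 0.39, 95% interval -1.54 to 0.29), or -0.99 without KO replicate B and -0.35 without KO replicate C. The sums of the 9 tested luminal markers of 11 were 20146, 31091 and 23991 in KO cultures A, B and C, against 36577, 34106 and 28796 in WT cultures A, B and C, and all 9 differences were negative. The part of the luminal markers in the Nqo1 values was not tested.

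Gclm, the modifier subunit, read 8.43, 8.23 and 7.98 in KO cultures, against 8.40, 8.35 and 7.86 in WT cultures A, B and C. Both arrays of pair C were the lowest, whatever the genotype, and the difference was 0.01 (SE 0.22), or -0.12 with median scaling. Gclc, the catalytic subunit, differed by 0.02 (SE 0.16), or -0.01 with median scaling. Sod1, the cytosolic dismutase, differed by 0.07 (SE 0.16), or -0.03 with median scaling, at its lead probe and by 0.35 (SE 0.24) at a dim second probe. Cat, the peroxisomal catalase, differed by -0.10 (SE 0.19).

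Srxn1 differed between pairs of cultures, while its genotype difference did not pass the test. Its lead probe read 10.53, 10.62 and 7.31 in KO cultures A, B and C, against 10.77, 10.58 and 6.82 in WT cultures A, B and C. In raw intensity these were 1733.1, 1272.4 and 245.7 in KO cultures, against 2090.1, 1609.4 and 198.1 in WT cultures. Both arrays of pair C were far below the other 4, and the genotype difference was 0.09 (SE 1.27, 95% interval -2.90 to 3.08). Pair A differed by -0.24, pair B by 0.04 and pair C by 0.48, and the group difference ran from -1.19 without WT replicate C to 1.18 without KO replicate C.

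A pair term was therefore tested in limma with the genotype in the model, as an F test over A, B and C chosen after the values were seen. The mean of pair C minus that of pairs A and B was -3.56 on the log2 scale, which makes pair C 11.8-fold lower, and the F test gave adjusted p = 0.00218. The other Srxn1 probes gave log2 values of -3.21 and -2.19 for the same difference, and F test adjusted p = 0.00293 and 0.00661. These 3 probes were the only members called by the pair term, 6.25% of 48, where 6% of all tested probes were called, so the members' share was near the background. The Srxn1 lead probe stayed called under the 10 alternatives run, with log2 values from -3.80 to -2.85.

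Of the 48 member probes, 16 had a lower and 32 a higher mean in pair C than in pairs A and B. The same split was not counted over all tested probes, so it cannot be read as particular to the members. Gstt3 was higher in pair C by 1.11 (F test adjusted p = 0.0535), Gpx3 by 1.78 (0.188) and Gpx7 by 0.81 (0.115). The lead probes of Gstp1, Gstm2 and Gstm5 were higher by 0.58, 0.64 and 0.61. NRF2-linked members and Sod2 were among those with lower values, none passing besides Srxn1. Hmox1, the haem-degrading enzyme, read 9.59, 10.34 and 8.05 in KO cultures, against 9.66, 9.31 and 8.47 in WT cultures A, B and C. The 2 lowest values were both of pair C, and the adjusted p of the pair term was 0.064. Its genotype difference was 0.18 (SE 0.59), split by pair as -0.07 (A), 1.02 (B) and -0.42 (C). Sod2, the mitochondrial dismutase, read 10.94, 11.27 and 10.36 in KO cultures, against 11.14, 11.12 and 10.33 in WT cultures A, B and C, with a pair term adjusted p = 0.0724 and a genotype difference of 0.00 (SE 0.32). Txnrd1 read 5.27, 5.58 and 4.79 in KO cultures, against 5.15, 5.28 and 4.43 in WT cultures A, B and C, with a pair term adjusted p = 0.0791 and a genotype difference of 0.25 (SE 0.30). For Sod2 and Txnrd1, too, both arrays of pair C were the lowest. Txnrd1 was detected on 5 of the 6 arrays and sits near background, and its WT C value lay below the lowest detected signal of that array, 4.52. Nqo1 and Prdx1 had no such order, with pair term adjusted p = 0.882 and 0.648.

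**Figure D3:**
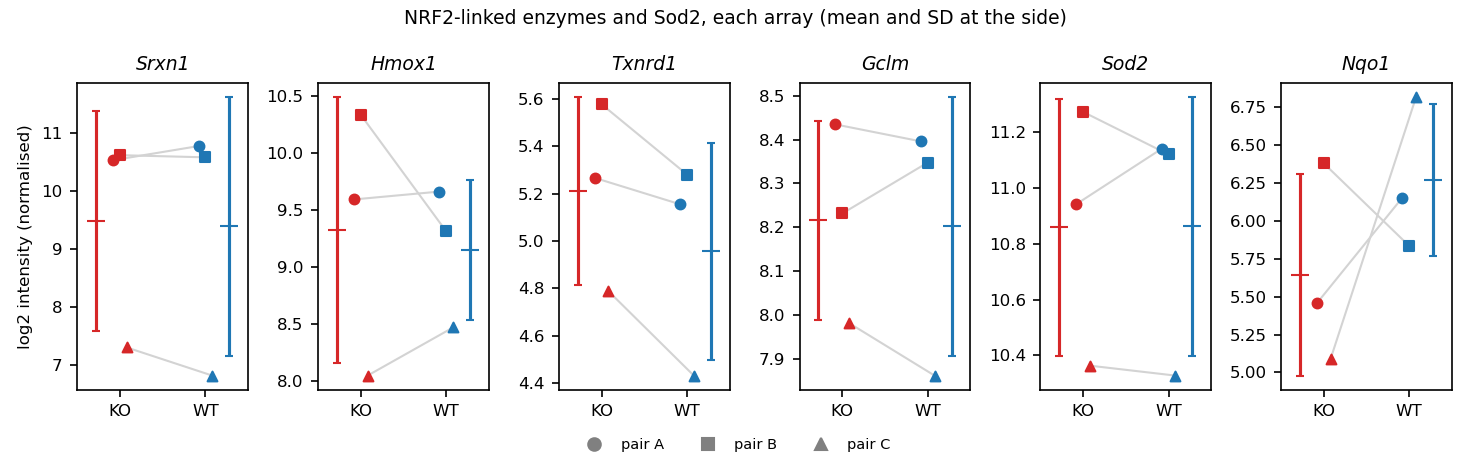
Normalised log2 intensity (y axis, own scale per gene) of Srxn1, Hmox1, Txnrd1, Gclm, Sod2 and Nqo1 in each KO array (red, left) and WT array (blue, right), with grey lines joining cultures of the same pair and crossbars for the mean and SD (n = 3). Both triangles of pair C lie lowest in every panel except Nqo1, where they are the lowest and the highest value.

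Marker sums of erythroid cells, macrophages and adipocytes (3 tested of 8) were lowest in pair C too, within each genotype. Those of basal cells were highest in pair C, at 33302 in KO and 36491 in WT. The other marker lists were neither lowest nor highest in pair C in both genotypes. The 3 tested erythroid markers of 7, Hba-a1, Hbb-b2 and Alas2, were all called by the pair term (adjusted p = 0.00111, 0.0411 and 0.0131). Their summed intensity was 4628, 13733 and 270 in KO cultures A, B and C, against 6142, 12676 and 299 in WT cultures A, B and C. Hbb-b1, Slc4a1 and Epb42 were among those not tested. Summed intensity of the 9 tested macrophage markers of 12 was 5332, 4148 and 2823 in KO cultures A, B and C, against 5536, 4541 and 2375 in WT cultures A, B and C, and the pair term called 2 of them. It also called 2 of 9 alveolar markers, whose sums were not lowest in both arrays of pair C. The part of any of these transcripts in the Srxn1, Hmox1 and Sod2 values was not tested.

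Related genes outside the members were taken from 8 lists of 109 genes, of which 84 were tested. Of these 84, 0 passed in either direction in limma, where 0.0167% of all probes did, and at an unadjusted p under 0.05 there were 2, 1 higher and 1 lower, or 2.38% against 3.03% of all probes. Their median difference was 0.00, with 41 positive and 43 negative. The lower one was Osgin1, an oxidative stress response gene, at 7.30, 7.99 and 7.80 in KO cultures, against 8.44, 8.51 and 8.81 in WT cultures A, B and C. The groups did not overlap, and the difference was -0.89 (SE 0.23, limma adjusted p = 0.9999). The higher one was Akr1b8, an aldo-keto reductase, with a difference of 0.57 (SE 0.21). Its values were 6.12, 5.59 and 5.68 in KO cultures, against 5.11, 5.43 and 5.13 in WT cultures A, B and C, without overlap.

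The 2 genes with the smallest p of each remaining list did not pass either. Among the NRF2 regulators, the small Maf factor Maff differed by -0.50 (SE 0.26) and the autophagy receptor Sqstm1 by -0.59 (SE 0.41). In glutathione supply and turnover, Esd differed by 0.37 (SE 0.19) and Ggct by -0.77 (SE 0.50), with other Ggct probes from -0.58 to 0.01. Among thioredoxin and glutaredoxin genes, Txnrd2 differed by -0.31 (SE 0.19), or 0.26 at a second probe, and Txn2 by 0.22 (SE 0.20). Among sources of reactive oxygen, the oxidase Nox4 differed by -0.45 (SE 0.21) and Cyba, a subunit shared by such oxidases, by 0.43 (SE 0.20).

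The leukotriene synthase Ltc4s differed by 0.22 (SE 0.20) and Mgst1 by 0.11 (SE 0.24) among membrane transferases. Scly differed by 0.22 (SE 0.21) and Secisbp2 by 0.13 (SE 0.17) in selenoprotein synthesis. The selenium carrier Selenop differed by -0.37 (SE 0.18), or -0.02 at a second probe, and Selenow by 0.45 (SE 0.25) among other antioxidant genes.

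The pair term called 4 of the 84 related genes, 4.76% against 6% of all probes, so their share was near the background. They are named here after their values were seen. Nfe2l2 read 6.52, 6.52 and 5.12 in KO cultures, against 6.68, 6.61 and 5.09 in WT cultures A, B and C (pair term adjusted p = 0.0146). Bach1, a repressor that competes with NRF2, averaged 6.59 in pair C against 8.49 in pairs A and B (pair term adjusted p = 0.0125). Chac1, which degrades glutathione, averaged 5.96 in pair C against 10.3 in pairs A and B, and Ptges averaged 7.31 against 9.68 (adjusted p = 0.00147 and 0.018). The genotype difference of Nfe2l2 was -0.07 (SE 0.54). In the list of other NRF2 targets, the pair term called 0 of 15 tested genes. Taldo1, Tkt, Akr1b8, Ftl1 and Fth1 were lower in pair C, and the other tested genes of that list were higher. Idh1 was higher by 1.165 and Blvra by 0.84 (pair term adjusted p = 0.0645 and 0.0584).

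**Figure D4:**
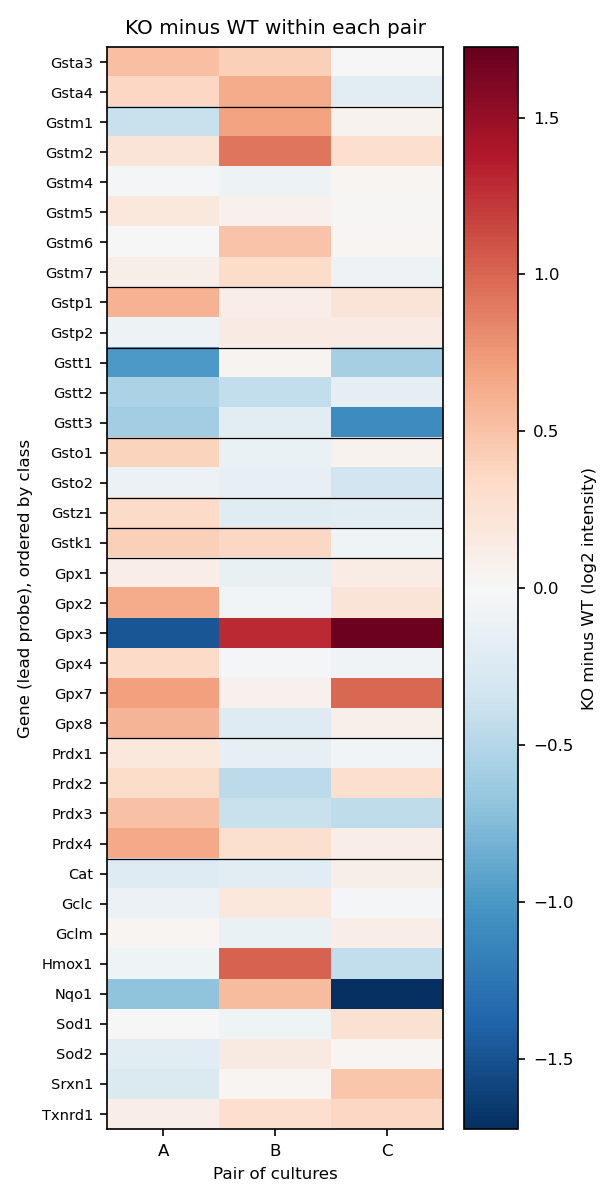
KO minus WT difference in log2 intensity (colour) of the lead probe of each of the 36 tested member genes (rows, ordered by class, lines between classes) within pairs A, B and C (columns). Gpx3, Hmox1 and Nqo1 change sign between pairs, and Gstt2 and Gstt3 are negative in all 3 columns.

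Within pairs, 14 of 48 member probes (29.2%) kept one sign in all 3 pairs, against 31.2% of all tested probes. Of the 14, 11 were higher in KO (22.9% of members, 12% of all probes) and 3 were lower (6.25% of members, 19.2% of all probes). Some of the values behind these counts were small, such as 0.01 for Gsta3 in pair C and 0.005 for Gstm6 in pair A. The counts use quantile-normalised values, and under median scaling the members' group differences were 23 positive and 25 negative. The lower ones were Gstt2, Gstt3 and the lead probe of Gsto2. The higher ones included all 3 Gstm2 probes, Gpx7, Prdx4 and the lead probe of Gstp1.

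The members that were not tested were near background. Of 74 member probes, 20 were detected on no array and 6 on 1 or 2 arrays. The genes without a tested probe were Gsta1, Gsta2, Gstm3, Gstp3, Gstt4, Gpx5 and Gpx6. At the edge of the filter, Gstm7 was detected on 3 arrays and read from 4.31 to 4.80, and Gstp3 was detected on 2 and read from 4.26 to 5.72, with its highest value in KO culture C.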

How the data were processed

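RNA of 6 cultures was labelled as biotinylated cRNA for Illumina bead arrays, following the protocol in the labels. The deposited intensity of each probe is not normalised and has a deposited detection p-value beside it, per the file headers. The authors' value table holds log2 values, with a median of 6.746 in each column and a rank correlation of 1 with the raw intensities of each array, so its direction is known and its background treatment is not. Per the submitters' processing notes, GenomeStudio and lumi were used, with versions and roles unstated.

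Intensities were normalised with neqc of limma 3.58.1 in R 4.3.3 (background from detection p-values, offset 16, quantiles, log2). The KO and WT arrays were compared by lmFit and eBayes over 17920 probes, with Benjamini-Hochberg adjustment. Names came from the platform annotation, which gives 34885 of 45281 probes 1 symbol and 18 several, with 10378 unnamed here, and from a GRCm38.p6 gene table that matched 34807 symbols. Members, lists and the naming rule were chosen with earlier results of these data known. The rule names the NRF2-linked enzymes, dismutases and Cat, and the 2 genes of smallest unadjusted p per class and list. The other genes described and the pair term were chosen after values were seen. Deviations of same-letter arrays correlated at 0.352 (A), 0.490 (B) and 0.720 (C), and WT A with KO B at 0.423. The scripts were tested on simulated data that kept the fitted pair effects. At an adjusted p under 0.05, the fit without a pair term recovered 1.2% of planted 2-fold and 71.8% of planted 4-fold changes. The fit with the pair block recovered 84.8% and 100%. False calls per run were 0 without the block and 31.2 with it. The simulation planted many changes at once, and the adjustment is stricter where few probes change, as with the 3 probes called here. Recovery in these data may therefore be lower, and changes of 2-fold and more could be missed by the main fit. A Cops8 probe, for example, differed by 4.22 on the log2 scale and was not called (limma unadjusted p = 1.43e-05). The array identifiers name a single chip, so no chip block was fitted. Alternatives covered background, scaling, offset, detection filter, probe choice, weights, the pair block and left-out arrays.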

Additional observations from a re-analysis of the deposited data

How the results depend on the processing

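The count of members with an adjusted p under 0.05 was 0 in all 17 alternatives, with the lowest adjusted p of a member at 0.466, with array weights. The count at an unadjusted p under 0.05 was 1 without background correction, with median scaling, in the authors' values and at offset 50 (2.84% to 3.28% of all probes passed), 2 with pairs A and B only (5.59%), 5 of 74 without a detection filter (3.97%), 10 with array weights (10.3%) and 0 to 3 when 1 array was left out (1.38% to 6.32%). With pairs as a replicate block it was 5 (10.4%), against 8.08% of all probes, and with the block 4 probes of all tested were called, against 3 without it. The block also moved the unadjusted counts of several gene lists. They were 2 of 8 endothelial, 3 of 9 luminal and 3 of 11 proliferation markers, against 0, 1 and 1 without it. No gene of these 3 lists passed after adjustment in either fit. The members' median was -0.015 with median scaling and 0.04 to 0.12 without 1 array. Probes called among all tested numbered 3, and 1 without background correction, on the authors' table, with an offset of 50 or without a detection filter, 0 with detection p under 0.01 on all 6 arrays, 5 with array weights and 1 to 2 without 1 array. Kdm5b was at -0.87 without background correction (adjusted p = 0.199), -0.89 on the authors' table (0.197), -1.45 with an offset of 50 (0.0892), -2.46 without a detection filter (0.0688), -2.56 with pairs A and B only (0.0703) and -2.59 to -2.35 without 1 array. The pair term called 5 members with median scaling (4.85% of all probes), 2 without background correction or in the authors' values (0.541%) and 3 to 4 without 1 array (1.03% to 8.86%).

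No named member was called under any setting, and several signs turned. With median scaling the differences were -0.0084 (Gclc), -0.12 (Gclm), -0.031 (Sod1), -0.032 (Srxn1) and -0.022 (Gsto1). With array weights they were -0.077 (Gclm), -0.0051 (Sod1), -0.75 (Srxn1), 0.050 (Prdx3) and 0.061 (Gstz1). With pairs A and B only they were -0.094 (Gpx3), -0.039 (Gclm), -0.031 (Sod1), -0.10 (Srxn1), 0.061 (Prdx3) and 0.065 (Gstz1). Without 1 array the ranges were -0.39 to 1.43 (Gpx3), -0.048 to 0.070 (Gclc), -0.16 to 0.13 (Gclm), -0.33 to 0.82 (Hmox1), -0.27 to 0.25 (Sod2), -1.19 to 1.18 (Srxn1), -0.0071 to 0.47 (Txnrd1), -0.12 to 0.27 (Gsto1), -0.26 to 0.066 (Prdx3), -0.0035 to 0.13 (Gstp2) and -0.13 to 0.086 (Gstz1). The causes were not tested. Gsta3, Gpx2, Gclc, Gstm4, Gstm6, Gstm7, Gsto2, Gstp2 and Txnrd1 lie close to background. So do the third Gpx4 probe and the second probes of Sod1 and Prdx2. For all of these, that limits the size of any difference seen.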
